A study of Mus musculus with 4 samples.

Results

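The 10 genes described here, Sprr1a, Ly6d, Krt8, Krt18, Krt19, Krt7, Krt23, Sox9, Epcam and Afp, are genes of injured or ductular epithelium, read from the 27027 gene entries of the liver count table. They were chosen by symbol, around Sprr1a and Ly6d, because these were strongly higher after acetaminophen (APAP) in the same libraries. All folds between APAP and control below are therefore descriptions. Male C57BL/6J mice (strain C57BL/6 in the labels), 9 to 12 weeks old and fasted for 10 h, received NaCl solution or APAP at 300 mg/kg i.p., and livers were taken after 24 h or 48 h. RNA of 6 NaCl-treated mice at each time and of 7 APAP-treated mice at each time was pooled, and each pool gave 1 library of 3′ mRNA ends (MACE). As each group is 1 library, differences could not be checked against replicates, no p-values are given and each interval below is a 95% interval for counting error only. Counted reads came to 4859661 for the control pool at 24 h, 5191990 for that at 48 h, 5698778 for the APAP pool at 24 h and 4938164 for that at 48 h. Values that are given as pairs below are in the order 24 h and 48 h.

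Keratins 8 and 18 pair into the intermediate filaments of hepatocytes, whereas cholangiocytes, the cells that line bile ducts, add keratins 7 and 19. After severe liver injury, cells with duct features can multiply at the portal tracts, a response called the ductular reaction, for which Krt7, Krt19, Krt23, Sox9 and Epcam serve as markers. Sprr1a is a precursor of the cornified envelope of skin, Ly6d is a surface protein of the Ly6 family, and Afp is the fetal counterpart of albumin.

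After APAP, the members fell into 2 sets. Sprr1a, Ly6d, Krt8, Krt18 and Sox9 were higher at both times, with intervals above 1, whereas Krt19, Krt7, Krt23 and Epcam had at most 15 reads in any library and none of their ratios had an interval above 1. Afp lay between them. Counts of 3 reads or fewer were set to 3 for counting genes past a fold, and genes with more than 3 reads in at least 1 of both libraries were taken as counted. Of the 10 genes, 9 were counted at 24 h (Krt23 was not) and 10 at 48 h. At least 5-fold higher were 2 of the 10 genes at 24 h (Sprr1a and Ly6d) and the same 2 at 48 h, where 0.795% of the 16095 genes counted at 24 h and 0.474% of the 16018 counted at 48 h reached this fold. At least 2-fold higher were 5 genes at 24 h (Sprr1a, Ly6d, Krt8, Krt18 and Sox9; 7.23% of all genes) and 5 at 48 h (Sprr1a, Ly6d, Krt8, Krt18 and Afp; 8.51% of all genes). None was at least 2-fold lower at 24 h (8.47% of all genes), and 2 were at 48 h (Krt7 and Krt23; 7.1% of all genes). Among the genes with at least 20 reads over all libraries, 5 members were at least 2-fold higher at each time (7.73% of 14133 genes at 24 h and 8.17% at 48 h), and the members at least 2-fold lower numbered 0 at 24 h (7.34% of these genes) and 1 at 48 h (6.79%). As the members were chosen from this contrast, nothing is read from these shares. The median log2 fold of the 10 genes was 1.18 at 24 h and 0.92 at 48 h, beside 0.00 and 0.02 over all genes counted. Scaling by library totals in place of median-of-ratios size factors raised the log2 folds of all genes by 0.19 at 24 h and 0.27 at 48 h.

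**Figure D1:**
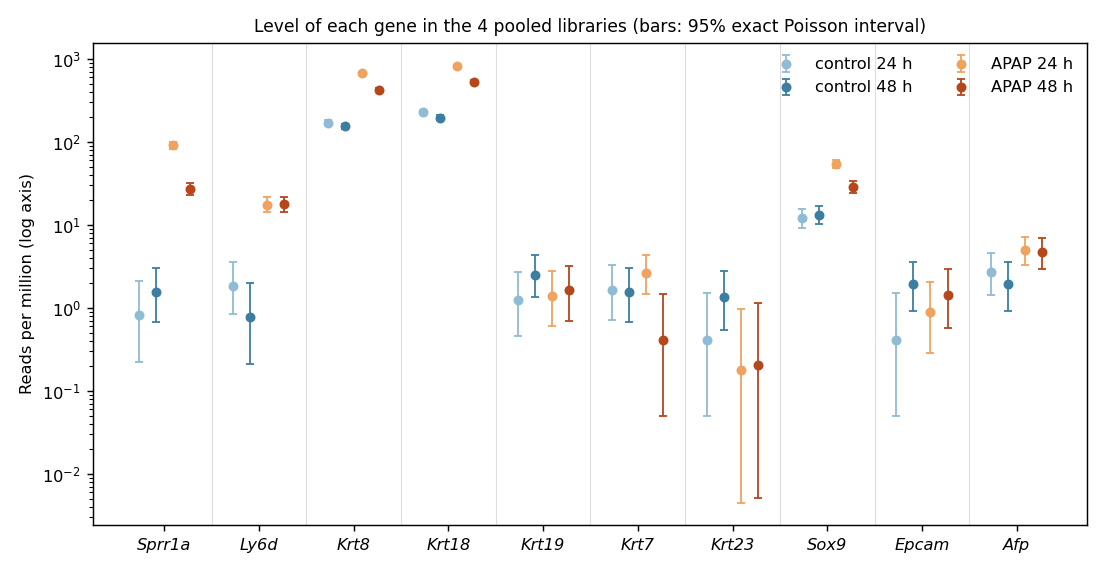
RPM (log axis) of the 10 genes in the 4 pooled libraries; points are the single value of each pool and bars the 95% exact Poisson interval. Sprr1a, Ly6d, Krt8, Krt18 and Sox9 lie higher in both APAP pools than in both control pools, with no overlap of the bars, and Krt19, Krt7, Krt23 and Epcam do not.

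Sprr1a encodes a small proline-rich protein that transglutaminases cross-link into the envelope of keratinocytes, and it is also known as a gene induced in injured nerve and heart. It was counted with 4 and 8 reads in controls at 24 h and 48 h, and with 516 and 134 reads after APAP. In reads per 1000000 counted reads (RPM), this is 0.823 and 1.54 in controls and 90.5 and 27.1 after APAP. Both APAP pools were thus far above both control pools, and the APAP pool at 24 h stood highest. After division by size factors, the ratio of APAP over control was 96.6 at 24 h (37.5 to 356) and 14.6 at 48 h (7.22 to 34.6). At 24 h its fold had rank 1 of the 16095 genes counted, and at 48 h it had rank 10 of 16018. The fold at 24 h was 6.57 times that at 48 h (1.73 to 30.3). These folds moved with the few control reads. Against the control pool of the other time they were 51.2 and 27.6, against the sum of both control pools 66.4 and 18.97, and with a floor of 10 reads 38.7 and 11.7. Between both APAP pools, which do not depend on the few control reads, Sprr1a was 3.50 times higher (2.89 to 4.26) at 24 h, while the control pools differed by a ratio whose interval held 1 (0.505 to 8.56 for 48 h over 24 h).

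In the plane of log2 folds at 24 h and 48 h, the 5 genes closest to Sprr1a, among 11362 genes that reached 20 reads in some library, were Mt2 (distance 1.74), Cxcl1 (1.85), S100a8 (2.31), Mt1 (2.53) and Sult1e1 (2.77). None of them lay near it, as the log2 folds at 24 h and 48 h were 6.59 and 3.87 for Sprr1a and 5.10 and 2.98 for Mt2. The order rests on 2 folds from 4 libraries. Mt1 and Mt2 are metallothioneins, Cxcl1 is a neutrophil chemokine, and S100a8 is a calcium-binding protein of neutrophils and monocytes.

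Sprr1a lies on the minus strand of chromosome 3 (GRCm38, chr3:92483952-92485895). The annotation gives 2 exons, and the 3′UTR, from which MACE reads derive, has 309 bases. The bases before its start are shown because Sprr1a had the highest fold of all genes at 24 h, and those of Krt8 and Krt18 because this pair was higher in both APAP pools by similar folds. They are taken from RefSeq (GRCm38.p6), which held a promoter for 7 of the 10 genes, and end where the first annotated transcript of GENCODE or RefSeq begins. Capitals mark TGANTCA, the letters of an AP-1 motif, and TATAAA.
Sprr1a (chr3:92485896-92486131, minus strand): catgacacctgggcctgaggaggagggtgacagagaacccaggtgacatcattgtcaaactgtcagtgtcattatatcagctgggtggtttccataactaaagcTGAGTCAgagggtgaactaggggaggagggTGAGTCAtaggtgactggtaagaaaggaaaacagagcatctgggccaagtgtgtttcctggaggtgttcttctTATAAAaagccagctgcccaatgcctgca
Krt8 (chr15:102004483-102004592, minus strand): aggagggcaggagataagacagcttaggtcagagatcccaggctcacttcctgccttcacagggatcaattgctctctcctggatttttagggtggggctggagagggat
Krt18 (chr15:102027966-102028179, plus strand): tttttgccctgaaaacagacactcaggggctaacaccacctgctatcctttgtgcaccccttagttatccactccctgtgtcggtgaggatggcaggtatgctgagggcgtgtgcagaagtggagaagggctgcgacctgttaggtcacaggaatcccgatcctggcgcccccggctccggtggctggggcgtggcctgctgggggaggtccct

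The Sprr1a sequence holds TGAGTCA at 2 places, from 146 to 140 and from 116 to 110 bases before the RefSeq start, and TATAAA from 43 to 38 bases before it. Both strands of the 250 bases before each start were searched. Among the 7 members with a promoter, 1 (Sprr1a) held TGANTCA, as did 6.75% of 32851 mouse promoter windows of the same length. TATAAA was held by Sprr1a and Afp and by 12.4% of all windows. The TEAD letters GGAATG were in none of the 7 windows (12.6% of all windows), and the SP1 letters GGGCGG were in those of Krt7 and Epcam (32.7% of all windows). A match describes letters in a window and not a bound site.

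Ly6d encodes a GPI-anchored protein known from early lymphoid progenitors and from keratinocytes. It was counted with 9 and 4 reads in controls and with 100 and 87 reads after APAP at 24 h and 48 h, or 1.85, 0.770, 17.5 and 17.6 RPM. Both APAP pools were at the same level and lay above both control pools. The ratio of Ly6d was 8.32 at 24 h (4.21 to 18.7) and 19.02 at 48 h (7.17 to 71.4), where its fold had rank 4 of 16018 genes. The larger fold at 48 h came with fewer control reads. The APAP pools themselves had a ratio of 0.958 (0.710 to 1.29) for 48 h over 24 h, and the interval of the ratio of both folds held 1 (0.609 to 10.5). With the control pool of the other time, the fold was 19.9 at 24 h and 7.97 at 48 h, and with a floor of 10 reads it was 7.49 and 7.61. Ly6d lies on the minus strand at chr15:74762056-74763620 with 3 exons and a 3′UTR of 303 bases. The 5 genes closest to Ly6d in the plane of folds were S100a4 (distance 0.33), Mmp12 (0.40), Ccl2 (0.57), S100a9 (0.80) and Id1 (0.82), of which Mmp12 is a macrophage protease and Ccl2 a monocyte chemokine. These distances depend on few control reads, and the place of Ly6d moves with the control pool used, as its folds above show. Control counts set to the floor were those of Mmp12 (2 and 1 reads) and that of S100a9 at 48 h (1 read).

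**Figure D2:**
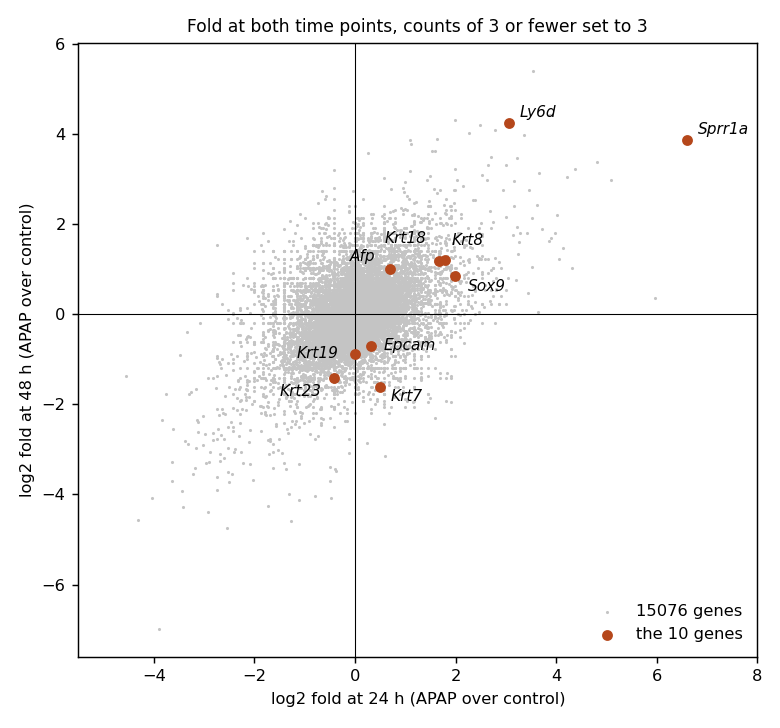
Log2 fold (APAP over control) at 24 h (x axis) and 48 h (y axis) for the 15076 genes counted at both times (grey) and the 10 genes (brown), with counts of 3 or fewer set to 3. Sprr1a and Ly6d lie at the upper right edge, Krt8, Krt18 and Sox9 lie together at log2 folds of 1.66 to 1.99 at 24 h, and Krt23, not counted at 24 h, is drawn at the floor.

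Krt8 and Krt18 held most of the reads of the 10 genes. Krt8, the type II keratin of the pair, was counted with 827 and 798 reads in controls and with 3811 and 2103 reads after APAP. Its levels were 170 and 154 RPM in controls and 669 and 426 RPM after APAP. Krt18, its type I partner, was counted with 1116 and 1014 reads in controls and with 4716 and 2606 after APAP (230, 195, 828 and 528 RPM). For both genes the order was the same, with the APAP pool at 24 h highest, then the APAP pool at 48 h, and both controls lowest. The ratio of Krt8 was 3.45 at 24 h (3.20 to 3.73) and 2.30 at 48 h (2.12 to 2.50). That of Krt18 was 3.17 at 24 h (2.97 to 3.38) and 2.25 at 48 h (2.09 to 2.42). Together the pair took 0.0400% of all reads in the control pool and 0.150% in the APAP pool at 24 h, and 0.0349% and 0.0954% at 48 h.

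The ratio of Krt8 to Krt18 reads within a library, which no scaling can change, was 0.741 (0.676 to 0.812) and 0.787 (0.716 to 0.864) in controls and 0.808 (0.774 to 0.844) and 0.807 (0.762 to 0.855) after APAP. All 4 intervals overlapped, but no interval was computed for the change of this ratio between libraries, and the change was not tested. The fold at 24 h exceeded that at 48 h by 1.50 times for Krt8 (1.34 to 1.68) and by 1.41 times for Krt18 (1.28 to 1.55). Counting error is not the only difference between pools. The control pools, neither of which received APAP, differed for Krt18 by 1.17 times (1.07 to 1.27). This is a single gene in a single pair of pools and gives no general scale for differences without APAP. Between the same pools, Epcam, with few reads, differed by 4.72 times (1.005 to 44.3), and the intervals of the other members held 1. Krt8 (chr15:101996698-102004482, minus strand, 9 exons) and Krt18 (chr15:102028180-102032027, plus strand, 7 exons) are 23.7 kb apart. No other annotated transcript matched the last 300 bases of any of the 10 genes with 95% identity along 100 bases.

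Sox9, a transcription factor of bile duct cells and their progenitors, was counted with 58 and 69 reads in controls and with 307 and 141 after APAP (11.9, 13.3, 53.9 and 28.6 RPM). As for the keratin pair, both APAP pools were above both control pools and the pool at 24 h was highest. Its ratio was 3.97 at 24 h (2.99 to 5.35) and 1.79 at 48 h (1.33 to 2.42), just under a fold of 2. The fold at 24 h was 2.22 times that at 48 h (1.45 to 3.39). The control pools did not differ beyond counting error (48 h over 24 h, 1.12, 0.780 to 1.62). Sox9 lies on the plus strand at chr11:112782224-112787760, with 3 exons and a 3′UTR of 2253 bases.

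**Figure D3:**
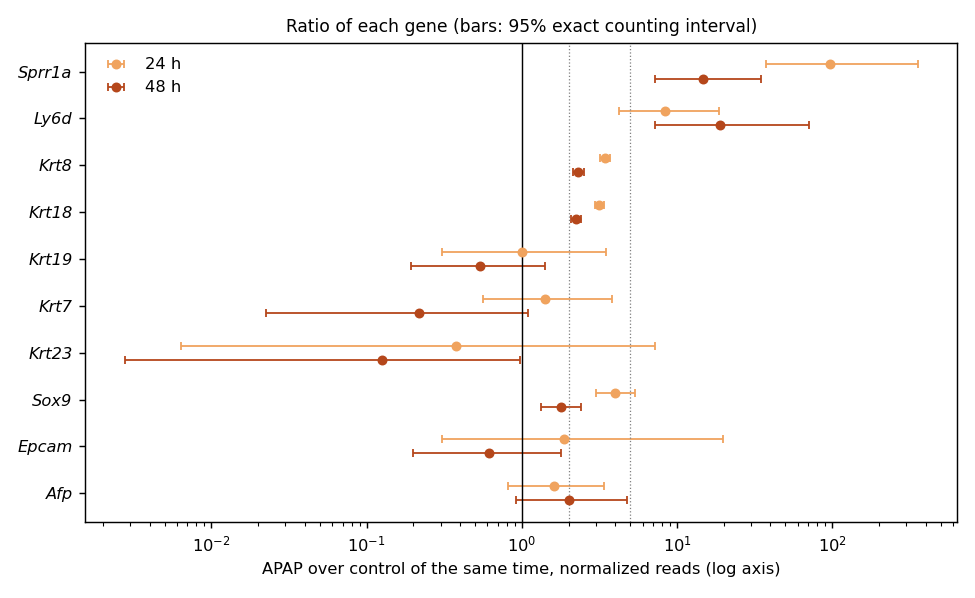
Ratio of normalized reads, APAP over control of the same time (log axis), for each of the 10 genes at 24 h and 48 h, with 95% exact counting intervals; the solid line marks 1 and dotted lines mark 2 and 5. The intervals of Sprr1a, Ly6d, Krt8, Krt18 and Sox9 lie above 1 at both times, and those of Sprr1a, Krt8, Krt18 and Sox9 are lower at 48 h than at 24 h without overlap.

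The remaining duct keratins and Epcam were near the limit of detection in all 4 libraries, where 3 reads correspond to 0.526 to 0.617 RPM. Krt19, the type I keratin that defines cholangiocytes, had 6 and 13 reads in controls and 8 and 8 after APAP. Its ratio was 0.999 at 24 h (0.304 to 3.49) and 0.538 at 48 h (0.193 to 1.40). Krt7, its type II partner in ducts, had 8 and 8 reads in controls and 15 and 2 after APAP. The ratio of Krt7 was 1.40 at 24 h (0.559 to 3.83) and 0.219 at 48 h (0.0226 to 1.10). Epcam, an adhesion molecule of biliary and progenitor cells, had 2 and 10 reads in controls and 5 and 7 after APAP, with ratios of 1.87 (0.307 to 19.7) and 0.612 (0.198 to 1.78). Krt23, a type I keratin described in ductular reactions, had 2 and 7 reads in controls and 1 and 1 after APAP. At 48 h its ratio was 0.125 (0.00277 to 0.972), and at 24 h both counts were at or under 3 reads, so that no fold is given. For Krt19, Krt7 and Epcam, a difference was not detectable at this depth.

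Krt19, Krt7, Krt23 and Epcam together had 18 and 38 reads in controls and 29 and 18 after APAP. The summed ratio was 1.21 at 24 h (0.648 to 2.31) and 0.414 at 48 h (0.223 to 0.744). The lower value at 48 h moved with its control pool. The control pools differed from each other by 1.99 times (1.11 to 3.71, 48 h over 24 h), and against the control pool at 24 h the ratio of the APAP pool at 48 h was 0.825 (0.405 to 1.68). The control pool at 48 h also held reads of genes known from pancreatic acinar cells. Leaving out Cela1, which had 64 to 97 reads in every library and was set aside after its values were seen, 8 of 8 listed acinar genes (among them Ctrb1, with 22 reads) had reads there, 71 in all, against 1 read in the control pool at 24 h and 0 in both APAP pools. Pancreatic ducts also express Krt19, Krt7, Sox9 and Epcam, and the part of pancreatic RNA in the values of the control pool at 48 h was not tested. In bulk RNA, fewer cells of a type and less RNA per cell cannot be told apart.

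Afp, the albumin-like plasma protein of fetal liver, had 13 and 10 reads in controls and 28 and 23 after APAP (2.68, 1.93, 4.91 and 4.66 RPM). Both APAP pools were above both controls, but the intervals of the levels overlapped. Its ratio was 1.61 at 24 h (0.809 to 3.39) and 2.01 at 48 h (0.921 to 4.73), just over a fold of 2, with intervals that held 1. Afp overlaps the antisense gene Gm43449, as Krt8 overlaps Gm36026 and Krt7 overlaps Gm671 on the other strand, and whether reads were counted by strand is not given in the sources used here. Zbtb20, a repressor of Afp, had 1424 and 1425 reads in controls and 1042 and 1227 after APAP, and its ratio was 0.548 at 24 h (0.506 to 0.594) and 0.753 at 48 h (0.697 to 0.813). Zhx2, another repressor, had ratios of 0.764 (0.505 to 1.16) and 0.726 (0.487 to 1.08). In the list of 8 Afp regulators and albumin family genes, 1 was at least 2-fold lower at 24 h (Afm, afamin, with a ratio of 0.422, 0.363 to 0.490) and none was at least 2-fold higher at either time. The median log2 fold of this list was -0.29 at 24 h and -0.23 at 48 h, and with library totals the median at 48 h was 0.04.

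Other ductular genes did not share one direction. Of 26 listed cholangiocyte genes outside the members, 25 were in the table and 19 were counted at each time. At least 2-fold higher were 2 genes at either time, and at least 2-fold lower were 5 at 24 h and 3 at 48 h. For this and every other gene list, the shares of all genes counted at least 2-fold higher were 7.23% at 24 h and 8.51% at 48 h. The shares at least 2-fold lower were 8.47% and 7.1%, and those at least 5-fold higher 0.795% and 0.474%. The median log2 fold was 0.09 at 24 h and -0.32 at 48 h (0.28 and -0.05 with library totals). Tm4sf4, a tetraspanin-like membrane protein, was higher at both times, with 183 and 244 control reads, 588 and 719 APAP reads and ratios of 2.41 (2.04 to 2.86) and 2.58 (2.23 to 2.99). Spp1 (osteopontin), which macrophages and ducts both express, had ratios of 1.90 (1.37 to 2.67) and 2.14 (1.61 to 2.88). Onecut1, a transcription factor of hepatoblasts and ducts, had 84 and 89 control reads against 46 and 51, a ratio of 0.410 (0.280 to 0.595) at 24 h and 0.501 (0.348 to 0.715) at 48 h. Wfdc2 had ratios of 0.488 (0.292 to 0.804) and 0.381 (0.233 to 0.607). Cldn3 and Cdh1, junction proteins that hepatocytes share with ducts, had ratios between 0.889 and 1.06. The duct-restricted Cftr had at most 2 reads and Sctr at most 6 in any library.

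**Figure D4:**
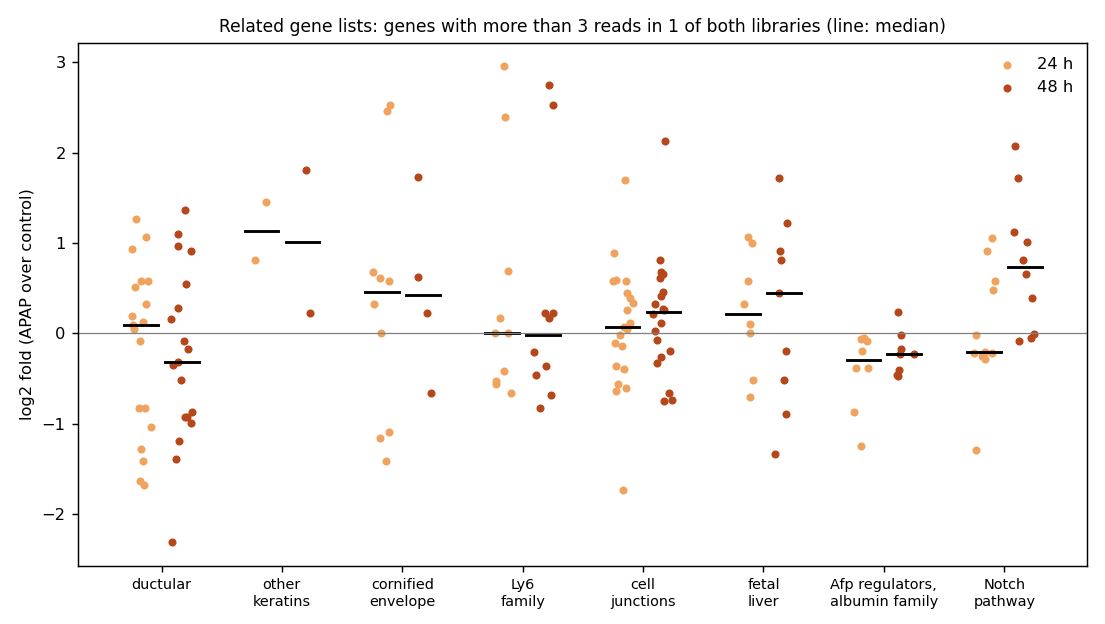
Log2 fold (APAP over control) of the counted genes of 8 related lists at 24 h and 48 h; each point is a gene and black lines are medians, all from single pooled libraries. The ductular and cell junction genes spread on both sides of 0, and the highest points among the Ly6 family are Plaur and Ly6c2.

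Few other keratins were detected. Besides the members, 15 further keratin genes were in the table, and 2 of them, Krt10 and Krt5, were counted at each time. Krt10 had 3 and 9 reads in controls and 11 and 12 after APAP. Krt5, a keratin of basal squamous epithelium, had 1 and 0 reads in controls and 7 and 12 after APAP. At 24 h its ratio was 5.24 (0.674 to 236), and at 48 h, with 0 control reads, the interval of the ratio began at 2.43. The 9 listed squamous markers, of which 5 were in the table, summed to 1.03 and 2.31 RPM in controls and 3.69 and 5.27 RPM after APAP, and Krt14 had at most 1 read.

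Of 26 cornified envelope genes, the family of Sprr1a, 15 were in the table. At 24 h, 10 were counted, of which 2 were at least 5-fold higher (Lor and Sprr2i) and 3 at least 2-fold lower. The latter were Sprr2a1, Sprr2a2 and Sprr2a3, near-identical copies with at most 8 reads each, between which reads could have been divided, and with library totals 1 gene was at least 2-fold lower. Lor, the main protein of the envelope, had 6 and 5 reads in controls and 46 and 19 after APAP, with ratios of 5.74 (2.45 to 16.5) and 3.32 (1.20 to 11.4). Sprr2i had 1 and 0 reads in controls and 22 and 1 after APAP, a ratio of 16.5 (2.66 to 680) at 24 h. At 48 h, 4 genes were counted and 1 (Lor) was at least 2-fold higher. Sprr1b, the closest relative by name, had at most 1 read.

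In the Ly6 family, 19 of 29 listed genes were in the table and 10 were counted at each time, of which 2 exceeded 5-fold at both times and none was at least 2-fold lower. These were Plaur, the urokinase receptor, with 2 and 2 control reads against 31 and 23 (ratios 11.6, 2.95 to 100, and 10.1, 2.48 to 88.0), and Ly6c2, a monocyte marker, with 3 and 5 against 21 and 33 (5.24, 1.57 to 27.5, and 5.77, 2.24 to 18.9). The abundant Ly6e had ratios of 0.695 (0.648 to 0.745) and 0.778 (0.732 to 0.828).

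Keratin filaments attach to cell junctions. Of 22 desmosome, tight junction and hemidesmosome genes, 21 were counted at 24 h and 20 at 48 h. At least 2-fold higher was 1 at each time (Itga2, with 0 control and 13 APAP reads, at 24 h and Lama5, with 1 and 15, at 48 h). At least 2-fold lower was 1 at 24 h (Lama3, 0.300), with 10 control and 4 APAP reads and an interval that held 1 (0.0686 to 1.04). The median log2 fold was 0.07 at 24 h and 0.23 at 48 h. Plec (plectin), which links keratin filaments to junctions, had ratios of 1.31 (1.10 to 1.56) and 1.58 (1.32 to 1.89), and Dsp (desmoplakin), which anchors them at desmosomes, had ratios of 1.85 (1.36 to 2.54) and 0.949 (0.722 to 1.25). Of 13 fetal liver genes, 8 were counted at 24 h and 9 at 48 h. At least 2-fold higher were 1 at 24 h (Cd24a, 2.10, 1.14 to 4.07) and 2 at 48 h (Gpc3, 3.28, 1.04 to 13.6, and Peg3, with 0 and 8 reads). Scd2 was at least 2-fold lower at 48 h (0.396, 0.256 to 0.602). It had 21 and 75 reads in controls and 30 and 34 after APAP, so that this lower ratio came with the higher control count at 48 h.

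Genes of the Notch pathway, which directs biliary fate, were read beside Sox9. Of 13 listed genes, 11 were counted at 24 h and 10 at 48 h. At least 2-fold higher was 1 at 24 h (Hes1; 7.23% of all genes counted), and 4 reached this at 48 h (Hes1, Heyl, Dll4 and Jag1; 8.51% of all genes counted). At least 2-fold lower was 1 at 24 h (Heyl; 8.47% of all genes counted) and none at 48 h. At 48 h, Jag1 had 10 control reads against 23, with an interval that held 1 (0.921 to 4.73), and Dll4 had 4 against 15 (1.04 to 13.6). Hes1, a Notch target, had 27 and 39 control reads against 75 and 97, with ratios of 2.08 (1.32 to 3.36) and 2.17 (1.49 to 3.24). Heyl had 11 and 5 control reads against 6 and 24, with ratios of 0.409 (0.124 to 1.21) and 4.20 (1.57 to 14.1). Notch2, the main receptor in biliary development, had ratios of 0.839 (0.655 to 1.08) and 0.996 (0.781 to 1.27). The median log2 fold of the list was -0.21 at 24 h and 0.73 at 48 h.

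Markers of other cells were read in the same libraries. The 10 hepatocyte markers had reads in every library and summed to 101288 and 103603 RPM in controls and 100668 and 114680 RPM after APAP, so that the libraries were those of liver. Myeloid markers did not share one direction. Of 10 markers, 4 at 24 h and 7 at 48 h were at least 2-fold higher, and their sum went from 132 to 221 RPM at 24 h and from 138 to 365 RPM at 48 h, with none at 0. Past 5-fold were S100a8 (ratios 20.8, 8.71 to 65.2, and 9.27, 4.85 to 19.9), Cd14 at 24 h (11.5, 4.74 to 36.5), and Lyz2 (5.39, 4.38 to 6.67) and Cd68 (5.11, 3.87 to 6.86) at 48 h. Cd14 had 5 and 16 reads in controls and S100a8 5 and 10, so that their folds depend on few control reads. The macrophage receptor Csf1r had ratios of 0.995 (0.791 to 1.25) and 0.936 (0.762 to 1.15), Adgre1 0.793 (0.531 to 1.19) and 1.14 (0.738 to 1.76), and the Kupffer cell marker Clec4f 0.534 (0.441 to 0.645) and 0.985 (0.831 to 1.17). Unlike the sum of these markers, Sprr1a, Krt8, Krt18 and Sox9 were higher in the APAP pool at 24 h than at 48 h. The single markers were mixed. S100a8 (139 and 106 reads in the APAP pools) and Cd14 (77 and 38) had fewer reads at 48 h. Adgre1 had 54 and 52 reads, out of 5698778 and 4938164 counted reads, and so was not lower at 48 h per counted read. The remaining markers had more reads at 48 h. The part of myeloid RNA in the levels of Sprr1a, Krt8, Krt18, Sox9 and Ly6d was not tested. B cells, which share Ly6d with their progenitors, were read by 10 markers, which summed to 26.1 and 30.0 RPM in controls and 8.95 and 8.30 RPM after APAP, with Cd79a and Ms4a1 at 0 to 3 reads in each. Most of this sum was Ighm, the heavy chain of IgM, with 105 and 127 control reads against 23 and 16 after APAP, and every other marker had at most 9 reads. Pax5 had 3 and 2 control reads against 7 and 9, and Cd22 4 and 1 against 8 and 3. Markers of plasmacytoid dendritic cells, which also express Ly6d, summed to 192 and 204 RPM in controls and 161 and 207 RPM after APAP, but Tcf4 and Bst2, which many cells express, held nearly all of these reads. Tcf4 had ratios of 1.23 (1.07 to 1.41) and 1.26 (1.10 to 1.44) and Bst2 0.437 (0.381 to 0.500) and 0.607 (0.538 to 0.685), whereas the defining Siglech had 1 to 5 reads and the others at most 8. Mesothelium, which expresses Krt8, Krt18, Krt19 and Krt7, had 8 markers at 4.32 and 4.24 RPM in controls and 4.04 and 3.85 RPM after APAP.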

How the data were processed

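The authors digested RNA with DNase, pooled it per group, prepared MACE-kit v.2 libraries, removed duplicates by molecular identifiers, trimmed low-quality ends (cutadapt) and poly(A) stretches, aligned to mm10 and counted reads per gene by HTSeq. They deposited raw counts, analysed here. Versions of these tools and counting by strand are not given in the sources used here. The table also holds RPM, log2 ratios, p-values and FDR of the authors (DESeq2), which were not used. Of the 27027 entries, 2414 join several identifiers.

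Counts were divided by median-of-ratios size factors (DESeq2 1.42.0) over 16338 genes (at 24 h, 0.880 for control and 1.17 for APAP; at 48 h, 0.933 and 1.07). Neither the DESeq2 nor the edgeR test was run. Intervals of ratios are exact (Clopper-Pearson) and those of levels exact Poisson intervals, at 95%. Those of ratios between folds are conditional exact intervals of an odds ratio. They cover counting error only. R 4.3.3, edgeR 4.0.16 (TMM), Python 3.11.15, scipy 1.17.1 and blastn 2.17.0 were used, with GENCODE mouse release 21 (GRCm38) for positions.

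Alternatives were TMM, scaling by totals, a pseudocount of 1 in place of the floor, a floor of 10 reads, the control pool of the other time, the sum of both control pools, and at least 20 reads over all libraries. The members and lists were chosen with earlier results of these data known. Named were all members, from each list up to 4 genes past 5-fold with at least 20 reads in a library or else those with most reads, the 5 genes nearest to Sprr1a and Ly6d, and genes that overlap a member. Other genes, such as those past 2-fold in a list, regulators, duct-restricted genes and genes with few reads, were named after their values were seen. Scaling of list counts and the other control for the summed duct genes were alternatives chosen after seeing the data. In simulated counts with 100 genes raised 8-fold, 99 were called at 24 h and 99 at 48 h, and 5 and 3 of 26827 unchanged genes were called. Calls were made at 5-fold, the raised genes had a mean of at least 20 normalized reads, and the simulated counts held counting error only. The simulation checks the calculation and does not show how often unchanged genes pass 5-fold between real pools, which also differ by their mice.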

Additional observations from a re-analysis of the deposited data

Results flagged for a closer look

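For 2 genes, Krt7 and Epcam, the ratio of APAP over control lay on opposite sides of 1 at the 2 time points. The ratio of Krt7 was 1.40 at 24 h (15 reads against 8) and 0.219 at 48 h (2 reads against 8). The ratio of Epcam was 1.87 at 24 h (5 reads against 2) and 0.612 at 48 h (7 reads against 10). The difference was not tested, as each ratio rests on 1 pool per group. All 4 intervals of these ratios held 1, as did the intervals of the ratio between both folds, from 0.0140 to 1.11 for Krt7 and from 0.0257 to 2.89 for Epcam (48 h over 24 h). Within a treatment, the interval excluded 1 for Krt7 between the APAP pools, with a ratio of 0.147 (0.0163 to 0.631) for 48 h over 24 h, and for Epcam between the control pools, with a ratio of 4.72 (1.005 to 44.3).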

How the results depend on the processing

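The number of members at least 5-fold or 2-fold higher stayed within 1.5 times under the 7 alternatives at both times. The number at least 2-fold lower moved. At 24 h it was 0, and 3 against the control pool of the other time. At 48 h it was 2, and 0 with a floor of 10 reads, 1 against the control pool of the other time, 1 against the sum of both control pools and 1 among genes with at least 20 reads over all libraries. Of 138 member folds under alternatives, 126 stayed within the counting interval, 12 left it and none past 2-fold turned direction. Part of the 126 could not move. The filter of at least 20 reads leaves each fold as it is, and the floor of 10 reads does not change the folds of Krt8, Krt18, Sox9 and Afp. The fold of Ly6d at 24 h, 8.32, was 19.9 against the control pool at 48 h, that of Krt18 at 48 h, 2.25, was 1.93 against the control pool at 24 h, and that of Epcam at 48 h, 0.612, was 1.92 against the control pool at 24 h. The summed ratio of Krt19, Krt7, Krt23 and Epcam was 0.606 at 24 h and 0.825 at 48 h against the other control pool, an alternative added after seeing the data. Of 40 list counts under other scalings, 34 stayed within 1.5 times and 6 moved. The 40 ratios between folds were computed only with TMM, library totals, the pseudocount and the floor of 10 reads, and stayed within their intervals. They were not computed with another control pool, with which the folds themselves moved. Against the control pool of the other time, the folds at 24 h and 48 h were 19.9 and 7.97 for Ly6d. They were 3.79 and 2.10 for Krt8 and 3.69 and 1.93 for Krt18. With library totals, Krt8 was 3.93-fold and 2.77-fold higher and Krt18 3.60-fold and 2.70-fold. The cause of these shifts was not tested beyond the change of control or scaling itself. No paired analysis was possible because each group has 1 library and no test was run. At this depth, genes under about 20 reads have intervals spanning several folds.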

Other observations

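Other listed cell types also differed between the pools. Of 9 stellate cell genes, 1 at 24 h and 4 at 48 h were at least 2-fold higher, and 1 was at least 2-fold lower at 24 h (Hand2, ratio 0.434, 0.186 to 0.959). Lrat, which stores retinol esters in quiescent stellate cells, had a ratio of 0.557 (0.322 to 0.951) at 24 h. Acta2, the smooth muscle actin of activated stellate cells, had 27 and 13 reads in controls and 78 and 202 after APAP, with ratios of 2.16 (1.38 to 3.49) at 24 h and 13.6 (7.77 to 26.0) at 48 h. Its order between the APAP pools was thus the opposite of that of Krt8, Krt18 and Sox9. Ighm, which held most reads of the B cell list, had ratios of 0.164 (0.0997 to 0.260) and 0.110 (0.0611 to 0.186). Of 8 cycling cell genes, 4 were counted at 24 h and 7 at 48 h, and 1 and 3 of these were at least 2-fold higher, while 1 (Plk1) was at least 2-fold lower at 48 h. Plk1 had 0 and 8 control reads against 1 and 2 after APAP, and the interval of its ratio at 48 h held 1 (0.0226 to 1.10). Their reads summed to 3.09 and 7.51 RPM in controls and 8.60 and 14.8 RPM after APAP, and Aurka, a mitotic kinase, had 7 and 8 control reads against 30 and 21 APAP reads, which was most of the sum at 24 h after APAP. Ccna2 had 4 control reads against 1 at 24 h and 3 against 5 at 48 h.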
